A study of Mus musculus with 6 samples.

Results

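The steroidogenic genes of the adrenal cortex described here are Star, Cyp11a1, Hsd3b1, Cyp17a1 and Nr5a1. They were chosen by gene symbol, as every cDNA clone of the array that the probe annotation assigns to 1 of these 5 genes. This gave 7 of 35961 clones, with 1 clone each for Star, Cyp17a1 and Nr5a1 and 2 each for Cyp11a1 and Hsd3b1. The study hybridised total RNA of the adrenal gland to 6 spotted cDNA arrays. Each array held RNA of wild-type mice (PACAP +/+) labelled with Cy5, read in the red channel, and RNA of PACAP knockout mice (PACAP -/-) labelled with Cy3, read in the green channel, both on the 129XC57BL6 F2 background. PACAP, pituitary adenylate cyclase-activating polypeptide, is a neuropeptide encoded by Adcyap1. The dyes were not exchanged on any array, so that a dye effect of a clone and a genotype effect cannot be told apart. Array numbers are those of the repeats in the labels. Separate mice per repeat are not stated there, so a p-value reflects how much these 6 arrays scatter, and that scatter may be technical.

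The adrenal cortex makes steroid hormones from cholesterol. Star encodes the protein that moves cholesterol to the inner mitochondrial membrane, where Cyp11a1, the side-chain cleavage enzyme, converts it to pregnenolone. Hsd3b1 encodes a 3-beta-hydroxysteroid dehydrogenase, which converts pregnenolone to progesterone. Cyp17a1 encodes the 17-alpha-hydroxylase needed for cortisol and androgens. It is not normally made in the cortex of the adult mouse, whose main glucocorticoid is corticosterone. Nr5a1 encodes steroidogenic factor 1, the nuclear receptor that drives transcription of this set of genes. Pituitary ACTH raises their output through its receptor MC2R, cAMP and protein kinase A.

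Star, Cyp11a1, Hsd3b1 and Nr5a1 were higher in the knockout channel, and Cyp17a1 was lower, when each array was normalized with 1 loess curve (global loess). Among the 4 higher genes the mean log2 ratio of knockout over wild type ran from 0.64 for Nr5a1 to 1.65 for a clone of Hsd3b1. Of the 7 clones, 6 had a ratio of sufficient quality on at least 4 arrays and were tested. In limma, with Benjamini-Hochberg adjustment over 28664 clones, 5 passed an adjusted p of 0.05 as higher and 1 as lower. Of all clones tested, 30.4% passed in either direction, 16.2% as higher and 14.2% as lower, so a call by itself was frequent on these arrays. With a separate loess curve for each print block, the area printed by 1 pin (block-wise or print-tip loess), 3 of the 6 passed as higher, both clones of Hsd3b1 and the clone of Nr5a1, and 0 as lower. At an adjusted p of 0.05, 11.2% of all clones passed with block-wise loess, 6.67% as higher and 4.55% as lower. By unadjusted p in limma, 5 of the 6 were under 0.05 with block-wise loess, without a share of all clones to set beside it. With global loess all 6 were under an unadjusted 0.05, as were 12216 of 28664 clones. After subtraction of the median of the nearest spots around each spot, 4 of the 6 passed as higher, where 9.15% of all clones did. With block-wise loess 4 member clones passed without array 1, where 3742 of 27347 clones of the whole array passed, 2354 of them as higher. Without array 5, 3 member clones passed, where 2692 of 27599 clones did, 1679 of them as higher. Without array 2, 3, 4 or 6 no member clone passed, when 1 to 19 clones of the whole array did. The ratios there kept their direction, at 1.14 to 1.43 for Hsd3b1 in block 33 and 0.51 to 0.71 for Nr5a1.

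Promoter sequence was at hand for 2 of the 5 genes, in RefSeq windows of assembly GRCm38.p6 that run from 250 bases before to 50 bases after a start site. The 250 bases before the start are shown for Hsd3b1 and for the downstream of the 2 starts of Cyp11a1, since both genes were higher in the knockout channel and both are textbook targets of steroidogenic factor 1. Capitals mark AGGTCA or TCAAGG, or the reverse complement CCTTGA, the overlapping parts of the sequence this factor is known to bind. The Cyp11a1 window lies at chr9:58014702-58014951 on the + strand and the Hsd3b1 window at chr3:98859795-98860044 on the - strand.
Cyp11a1: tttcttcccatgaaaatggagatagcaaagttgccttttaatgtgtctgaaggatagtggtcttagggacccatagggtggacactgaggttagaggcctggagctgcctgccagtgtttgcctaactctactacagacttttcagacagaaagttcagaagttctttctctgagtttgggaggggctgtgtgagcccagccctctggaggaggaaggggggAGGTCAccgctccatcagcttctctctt
Hsd3b1: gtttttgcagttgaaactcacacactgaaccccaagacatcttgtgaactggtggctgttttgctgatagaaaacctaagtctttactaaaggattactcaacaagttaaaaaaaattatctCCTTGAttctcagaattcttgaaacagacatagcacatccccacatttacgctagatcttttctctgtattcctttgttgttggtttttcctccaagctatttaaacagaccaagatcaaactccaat
The Cyp11a1 stretch holds AGGTCA from 28 bases before the start, and the Hsd3b1 stretch holds CCTTGA from 128 bases before it. Both also hold CCTTGA just after the start, outside the stretch shown. Of 32851 promoter windows of this length, 16.3% hold AGGTCA and 14.4% hold TCAAGG on either strand, and these 2 motifs were chosen after the sequences were seen. The longer motif CAAGGNC, present in 17.8% of windows, was found in none of the 3 member windows. Of the cAMP response motifs, TGACGTCA (1.8% of windows) was found in none, and TGACG, which overlaps it (20.8% of windows), was found on the reverse strand in the window of the upstream Cyp11a1 start, which is not shown and holds none of the motifs marked in capitals. TATAAA (13.6% of windows) was found in none. A match describes letters and is not a measured binding site.

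Signal strength differed between the arrays and between the clones. The median red signal of an array was 1.15 to 4.79 times the local background, lowest on array 4 and highest on array 1, and the median green signal was 5.39 to 7.07 times the background. Here and below such multiples divide the background-subtracted signal by the background, so a value under 1 is not a spot darker than its background. The SD of the normalized log2 ratios of an array was 0.34 on arrays 1 and 5 and 0.48 to 0.69 on the other 4. Per spot, 25949 to 31857 spots of an array had a ratio quality above 0.3. The clone of Adcyap1, the gene deleted in the knockout, passed this quality on 2 of 6 arrays, at log2 ratios of -0.17 and 0.02. It was at -0.18 ± 0.24 (SE, limma, adjusted p = 0.605) with no quality filter, so it gave no check of the genotype labels, and which part of the transcript it covers was not given in the sources used here. As a check of the tissue, 6 of 10 marker genes of steroidogenic cortical cells had a clone. By brightness within its own block, Star ranked 4th to 11th, Hsd3b1 in block 48 ranked 2nd to 23rd and Cyp11a1 in block 43 ranked 24th to 95th over the arrays. Hsd3b1 in block 33 ranked 2nd to 12th and Nr5a1 137th to 180th. The Cyp11a1 clone in block 9 ranked 504th on the 1 array where it passed the quality score. Mc2r and Scarb1, which also had clones, were not ranked. The markers Cyp21a1, Cyp11b1, Akr1b7 and Nr0b1 had no clone assigned.

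**Figure D1:**
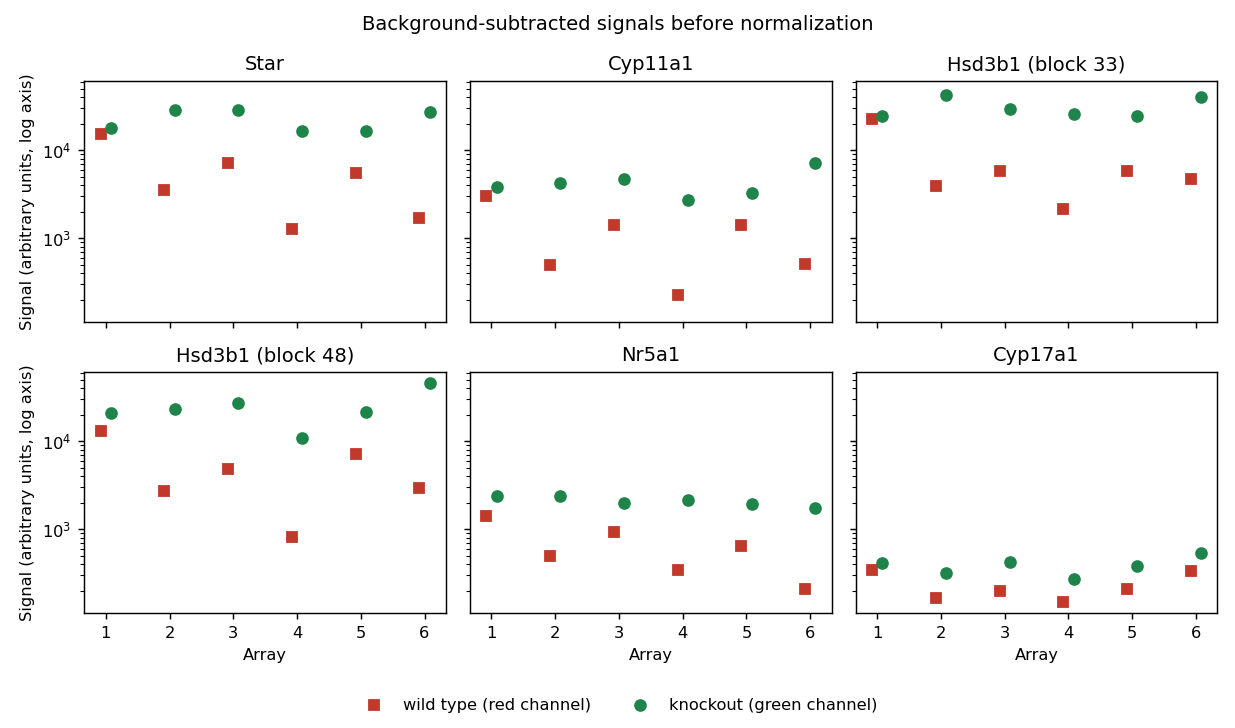
Background-subtracted signal of 6 clones (vertical axis, arbitrary units, logarithmic) on arrays 1 to 6 (horizontal axis), with squares for the wild type in the red channel and circles for the knockout in the green channel. For Star the red signal spans a 12.0-fold range over the arrays and the green signal 1.74-fold, and Cyp17a1 has the lowest median of the 6 clones in both channels.

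Star, the cholesterol carrier, was read by a clone in print block 28, whose older title on the array is an unnamed expressed segment. Its background-subtracted red (wild-type) signal was 15434, 3533, 7210, 1283, 5427 and 1686 on arrays 1 to 6. Its green (knockout) signal on the same arrays was 17999, 28681, 28735, 16644, 16539 and 27429. The green signal therefore stayed within a 1.74-fold range while the red one spanned 12.0-fold, and in both channels the spot lay 13.7 times the background or more. After global loess the log2 ratio was 0.17, 2.29, 1.20, 2.57, 0.63 and 2.35 on arrays 1 to 6. All 6 were above 0, with arrays 2, 4 and 6 far above arrays 1 and 5. The mean was 1.53 ± 0.27 (SE, n = 6, adjusted p = 0.00199 in limma), a 2.89-fold difference. With block-wise loess the 6 values were -0.13, 1.56, 0.70, 1.67, -0.04 and 0.27, so that arrays 1 and 5 fell just below 0. The mean was then 0.67 ± 0.24 (adjusted p = 0.0842 in limma), and Star no longer passed. Block 28 as a whole was shifted, at a mean log2 ratio of 0.41 after global loess, 43rd from the lowest of 48 blocks.

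Cyp11a1, which makes the first step of steroid synthesis in mitochondria, was read by a clone in block 43. Its red signal was 2988, 490, 1391, 228, 1415 and 503 on arrays 1 to 6, and its green signal was 3854, 4219, 4750, 2731, 3213 and 7101. The red signal came down to 2.38 times the background on array 4. The log2 ratio after global loess was 0.14, 1.90, 0.71, 1.94, 0.08 and 2.21, again highest on arrays 2, 4 and 6 and close to 0 on arrays 1 and 5. The mean was 1.16 ± 0.26 (SE, n = 6, adjusted p = 0.00595 in limma). With block-wise loess it was 0.72 ± 0.24 (adjusted p = 0.0713) and did not pass, with values of -0.19, 1.56, 0.17, 1.37, 0.04 and 1.38. Without array 1 the print-tip mean was 0.91 (adjusted p = 0.0393) and passed.

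The other clone assigned to Cyp11a1, in block 9, carries the older title of an EST with weak similarity to another protein, and its signals did not resemble those of the clone in block 43. Its background-subtracted red signal was 94.2 to 320.1 and its green signal 272.3 to 449.4, which is 0.51 to 2.25 times the background over both channels. It passed the quality score on 1 of 6 arrays, with a log2 ratio of -0.49 there, and was not tested. Whether this clone reads Cyp11a1 was not tested.

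Hsd3b1 was read by 2 clones, which share a target and are not replicates. The clone in block 48 had red signals of 13166, 2724, 4829, 807, 7086 and 2960 and green signals of 21077, 23345, 27055, 10958, 21365 and 45752 on arrays 1 to 6. Its log2 ratio after global loess was 0.63, 2.31, 1.66, 2.49, 0.63 and 2.21. All 6 values were above 0, with arrays 2, 4 and 6 highest as for Star. The mean was 1.65 ± 0.23 (SE, n = 6, adjusted p = 0.000734 in limma), a 3.15-fold difference. Block 48 had the highest mean of all 48 blocks, at 0.56. With block-wise loess the values were -0.04, 1.58, 0.63, 1.30, 0.06 and 1.01, and the mean of 0.75 ± 0.20 passed (adjusted p = 0.0424). The sequence of this clone was not at hand, and transcripts of other 3-beta-hydroxysteroid dehydrogenase genes, which are close copies, could add to its signal, so its value is uncertain as a measure of Hsd3b1 alone.

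The Hsd3b1 clone in block 33 was measured on 5 arrays, since its quality score on array 6 was 0.2. Its red signal on arrays 1 to 5 was 22608, 3911, 5837, 2164 and 5816, and its green signal was 24493, 42598, 29090, 25410 and 24310. The log2 ratio after global loess was 0.10, 2.77, 1.51, 2.56 and 1.10, with array 1 nearest 0. The mean was 1.61 ± 0.30 (SE, n = 5, adjusted p = 0.00288 in limma). This clone lay in a block with a mean of 0.11, and print-tip loess moved it less than the other members higher in the knockout except Nr5a1, to 1.40 ± 0.31 (adjusted p = 0.0324). With block-wise loess it exceeded the clone in block 48 on 5 of 5 arrays, by 0.70 ± 0.33 (SD). The exact two-sided sign-flip permutation p was 0.0625, the smallest that 5 arrays allow, and 0.313 after adjustment over 5 pairs.

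Nr5a1, the transcription factor of the set, had red signals of 1417, 503.2, 942.9, 347.3, 648.4 and 211.4 and green signals of 2413, 2360, 1975, 2126, 1949 and 1765. The green signal was 21.3 to 32.1 times the background. After global loess its log2 ratio was 0.49, 0.96, -0.11, 1.00, 0.42 and 1.09. Array 3 was the only one below 0. The mean was 0.64 ± 0.16 (SE, n = 6, adjusted p = 0.0094 in limma), a 1.56-fold difference. With block-wise loess all 6 values were above 0, at 0.39, 1.12, 0.15, 1.17, 0.41 and 0.48, and the mean of 0.62 ± 0.14 passed (adjusted p = 0.0318). Nr5a1 was thus the member whose mean changed least between the 2 normalizations, and its block, 15, had a mean of -0.03.

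Cyp17a1 had the lowest median signal of the 6 tested clones, low against the background, and was the 1 that was lower in the knockout channel with global loess. Its background-subtracted red signal was 148.4 to 343.5 and its green signal 271.3 to 536.9, which is 0.75 to 3.31 and 1.19 to 3.63 times the background. The log2 ratio after global loess was -0.17, -0.29, -1.05 and -1.44 on arrays 1, 3, 4 and 6, and the other 2 arrays did not pass the quality score. All 4 values were below 0, and the mean was -0.73 ± 0.21 (SE, n = 4, adjusted p = 0.0217 in limma). The nearest spots around it had medians of -0.16, -0.67, -0.91 and -1.14 on the same arrays, and block 9 had a mean of -0.40, 4th from the lowest of 48. After subtraction of those neighbours the mean was -0.02 ± 0.13 (adjusted p = 0.944), and with block-wise loess it was -0.18 ± 0.14 (adjusted p = 0.422).

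**Figure D2:**
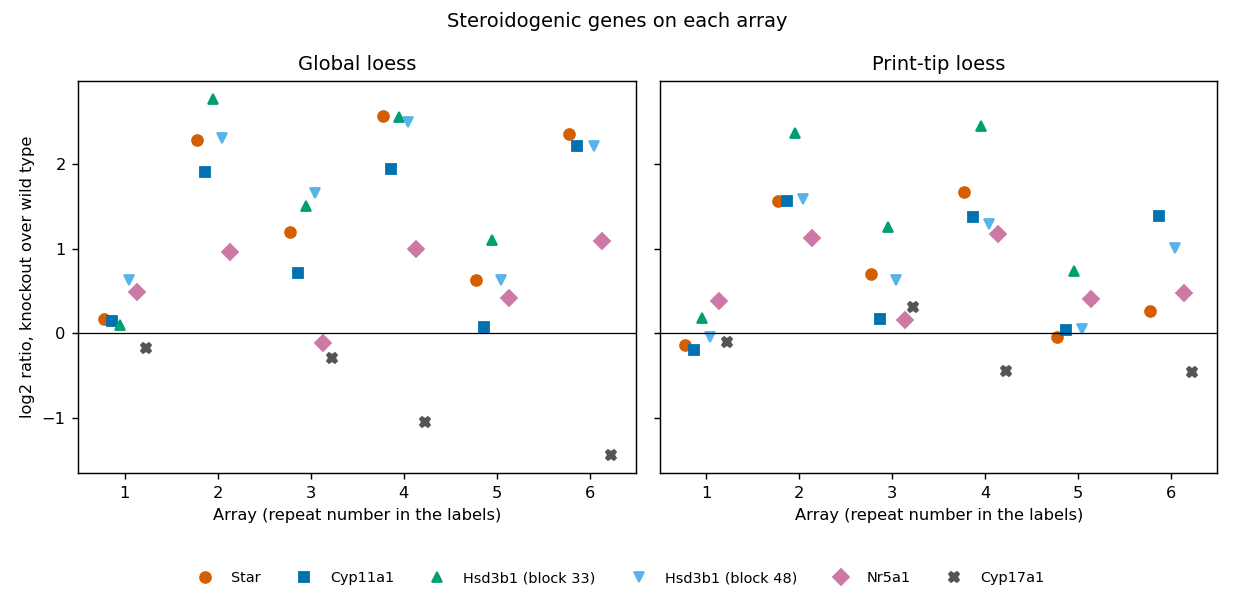
Log2 ratio of knockout over wild type (vertical axis) of the 6 tested clones on arrays 1 to 6 (horizontal axis), after global loess (left) and print-tip loess (right); each symbol is 1 clone on 1 array. Star, Cyp11a1 and Hsd3b1 in block 48 lie highest on arrays 2, 4 and 6 with global loess, and on arrays 1 and 5 Star and Cyp11a1 lie between -0.19 and 0.04 with block-wise loess.

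The height of the ratios differed between arrays. With global loess Star, Cyp11a1 and the Hsd3b1 clone in block 48 each had their 3 highest values on arrays 2, 4 and 6, which are the arrays with the lowest red signal over background (1.37, 1.15 and 1.65 times) and the widest spread of ratios over all clones. Cyp17a1 was farthest below 0 on arrays 4 and 6 of the 4 that measured it. The part of red signal strength in the size of these ratios was not tested. Ranked among all spots of the same array, Star lay at the 99.0th to 99.9th percentile on arrays 2, 3, 4 and 6, at the 95.8th on array 5 and at the 70.8th on array 1. Nr5a1 lay between the 42.0th and the 93.7th percentile. With block-wise loess Star ranged from the 26.7th to the 98.7th percentile, and the Hsd3b1 clone in block 33 from the 79.8th to the 99.9th. When the arrays were scaled to the same spread, an alternative chosen after seeing the data, the log2 ratio of Star was 1.32 ± 0.19 (adjusted p = 0.000252) and that of Nr5a1 0.60 ± 0.13 (adjusted p = 0.00414), in limma. Without arrays 2 and 4, which had the weakest red signal, 3 member clones remained past the threshold with global loess. They were Star (1.09) and both Hsd3b1 clones (0.90 and 1.28). Of all clones tested in that setting, 2066 of 29340 passed, 1488 of them as higher. Cyp11a1 was then at 0.78 (adjusted p = 0.0781), Nr5a1 at 0.47 (adjusted p = 0.133) and Cyp17a1 at -0.63 (adjusted p = 0.114), in limma.

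In the order of their mean ratios with global loess, the members ran from Hsd3b1 (1.65 and 1.61) over Star (1.53), Cyp11a1 (1.16) and Nr5a1 (0.64) to Cyp17a1 (-0.73). With 4 to 6 arrays a pair, an exact test adjusted over the 5 pairs of neighbours could not reach 0.05, so the differences are given with their spread. Star exceeded Cyp11a1 on 6 of 6 arrays, by 0.37 ± 0.24 (SD), with an exact two-sided sign-flip permutation p of 0.0313, the smallest that 6 arrays allow, and 0.156 adjusted over the 5 pairs. Cyp11a1 exceeded Nr5a1 by 0.52 ± 0.68 on 4 of 6 arrays (exact p = 0.125, adjusted 0.208). With block-wise loess the means of Hsd3b1 in block 48, Cyp11a1, Star and Nr5a1 lay within 0.62 to 0.75, and each differed from the next by 0.03 to 0.05, with SDs of 0.27 to 0.57 (exact p = 0.656 to 0.844). These tests do not show that the genes act alike.

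**Figure D3:**
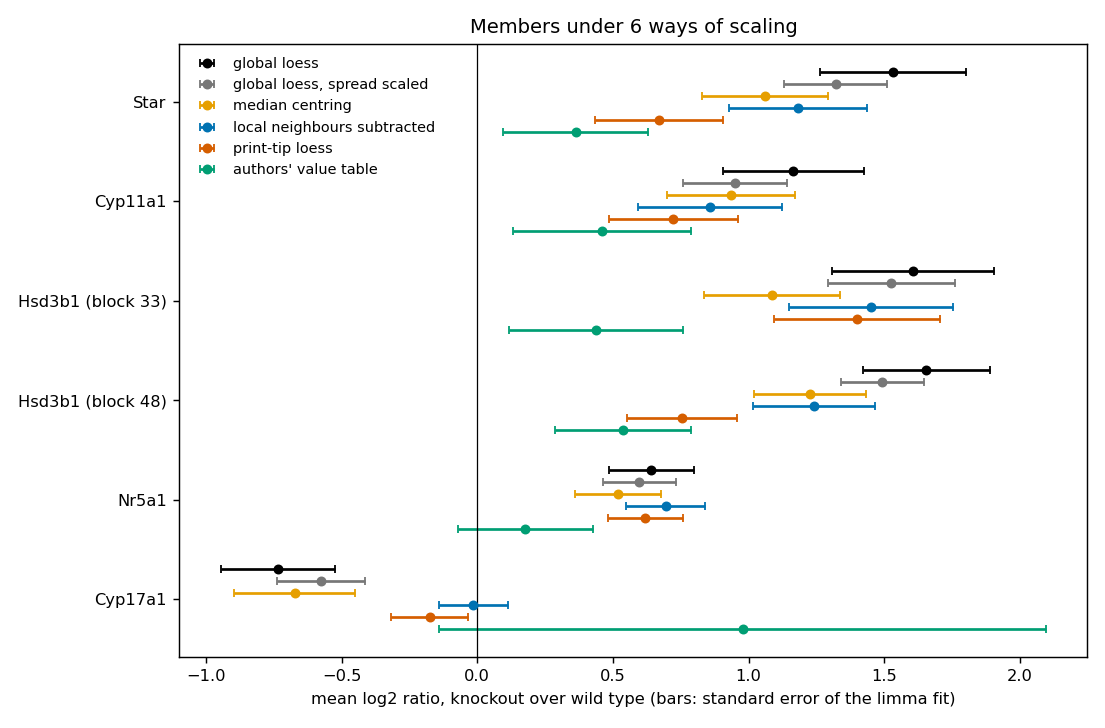
Mean log2 ratio of knockout over wild type (horizontal axis) of the 6 tested clones (rows) under 6 ways of scaling, with bars for the standard error of the limma fit. Star runs from 1.53 with global loess to 0.67 with print-tip loess and 0.36 in the authors' value table, and the estimates of Nr5a1 lie between 0.18 and 0.69.

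The authors' deposited log2 ratios, turned to knockout over wild type, were made after background had been subtracted a second time, and their median over an array's spots was 0.05 to 1.43. As deposited, without centring, they gave 1.11 ± 0.35 for Star (adjusted p = 0.0841), 1.20 ± 0.44 for Cyp11a1 (adjusted p = 0.096), 0.92 ± 0.25 for Nr5a1 (adjusted p = 0.0764) and 1.13 and 1.28 for the Hsd3b1 clones in blocks 33 and 48 (adjusted p = 0.0988 and 0.0764), in limma. The median over all clones was then 0.99. With each array centred here on its own median, Star was at 0.36 ± 0.27 (adjusted p = 0.317), Cyp11a1 at 0.46 ± 0.33 (adjusted p = 0.301), Nr5a1 at 0.18 ± 0.25 (adjusted p = 0.589) and the Hsd3b1 clones at 0.44 and 0.54. Cyp17a1 took the opposite sign, at 1.75 ± 1.31 uncentred and 0.98 ± 1.12 centred (adjusted p = 0.317 and 0.515). With centring 0 of the 6 clones passed in limma, 0 of them at an unadjusted p under 0.05, and 90 of 28522 clones of the whole array passed. The authors' deposited calibrated ratio of red over green for Star was 1.10, 0.32, 0.61, 0.27, 0.76 and 0.28 on arrays 1 to 6, so that wild type exceeded knockout on array 1 alone.

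Of 27 other genes of steroid synthesis outside the members, 11 had a clone that was tested. With global loess 2 passed as higher, 1 passed as lower and 8 failed the threshold, at a median log2 ratio of 0.14 against 0.02 over all clones. Of all clones 16.2% passed as higher and 14.2% as lower, so these counts lie near those shares. Hsd3b3, a close relative of Hsd3b1 read by a clone in the same block 48, was at 0.68, 2.04, 1.60, 1.89, 0.60 and 2.11 on arrays 1 to 6, a mean of 1.49 ± 0.20 (SE, n = 6, adjusted p = 0.000622 in limma). It was the 1 gene of the list that passed with block-wise loess, at 0.78 ± 0.19 (adjusted p = 0.0352 in limma). Of all clones 11.2% passed there. Whether the clones of Hsd3b1 and Hsd3b3 hybridise to one another's transcripts was not tested, so the 2 signals are uncertain as separate measures. Hsd11b1, which regenerates active glucocorticoid, was at 0.57 (n = 5, adjusted p = 0.0128) and at 0.25 with block-wise loess. Hsd17b11, a 17-beta-hydroxysteroid dehydrogenase, was lower at -0.89 ± 0.16 (adjusted p = 0.00259) and at -0.25 (adjusted p = 0.106) with block-wise loess. Fdx1, the ferredoxin that passes electrons to Cyp11a1, was at -0.34 with global loess and -0.01 with block-wise loess, and that clone passed in neither. Its other clone passed as higher with global loess, at 0.45 (n = 5, adjusted p = 0.0374 in limma), and was at 0.25 with block-wise loess (adjusted p = 0.125), so the 2 clones disagreed in sign.

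Genes of cholesterol delivery to mitochondria came next. With global loess 2 of 14 tested genes passed as higher, 0 as lower and 12 not at all, at a median of -0.01, where 16.2% of all clones passed as higher. In each list a gene was counted by its tested clone of highest signal. Among the other clones here, those of Npc2 in block 48 (1.41, adjusted p = 0.00104 in limma) and Vdac2 (0.54, adjusted p = 0.0153) passed as higher. That of Dbi passed as lower (-0.46, adjusted p = 0.0443), and these 3 values were chosen after they were seen. With block-wise loess they were at 0.88, 0.51 and 0.10. Vdac2, a channel of the outer mitochondrial membrane, was at 0.72 ± 0.14 (n = 6, adjusted p = 0.00346 in limma) and at 0.38 (adjusted p = 0.0497) with block-wise loess. Vdac1 was at 0.43 (adjusted p = 0.0481) and at 0.23 with block-wise loess. With block-wise loess, where 6.67% of all clones passed as higher, 3 of the 14 did, Vdac2 and, chosen after their values were seen, the lipoprotein receptor gene Scarb1 (0.85, adjusted p = 0.0377) and the lysosomal cholesterol transporter gene Npc1 (0.63, adjusted p = 0.0309). The last 2 were at 0.28 each and did not pass with global loess. Their other tested clones did not pass with block-wise loess, at 0.59 for Scarb1 (adjusted p = 0.0758 in limma) and -0.05 for Npc1 (adjusted p = 0.725). Tspo, the mitochondrial translocator protein gene, was at -0.60 (adjusted p = 0.0551) and -0.26 in the 2 normalizations and passed in neither.

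The ACTH receptor and cAMP signalling genes included 15 that were tested. With global loess 6 passed as higher, 1 passed as lower and 8 failed the threshold, at a median of 0.12. Of all clones 16.2% passed as higher and 14.2% as lower. The ACTH receptor gene Mc2r was at 0.12 (adjusted p = 0.555) and at 0.38 (adjusted p = 0.0827) with block-wise loess. Adcy6, an adenylyl cyclase, was higher on all 6 arrays, at 1.42, 1.09, 1.30, 1.52, 1.01 and 0.74, a mean of 1.18 ± 0.13 (adjusted p = 0.000292 in limma). Unlike Star, its values on arrays 2, 4 and 6 were not all above those of arrays 1 and 5. The catalytic subunit gene of protein kinase A Prkacb was at 0.74 ± 0.15 (adjusted p = 0.00444). Pde8b, a phosphodiesterase that breaks down cAMP, was at -0.39 ± 0.13 (adjusted p = 0.0375), whereas its 2 other clones were at 0.09 and 0.03. With block-wise loess 3 were higher and 0 lower, where 6.67% and 4.55% of all clones were. They were Adcy6 at 0.51 (adjusted p = 0.0293 in limma) and genes named after their values were seen. The latter were the regulatory subunit gene Prkar1a at 0.58 (adjusted p = 0.0484) and the cAMP-responsive transcription factor gene Crem at 0.60 (adjusted p = 0.0316). The other clone of Adcy6 was at 0.28 with global loess.

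Transcription factors of steroidogenic tissue other than Nr5a1 gave 22 tested genes, 4 higher, 2 lower and 16 not past the threshold with global loess, at a median of 0.17. These counts lie near the shares of all clones, 16.2% as higher and 14.2% as lower. Nr2f2, the orphan nuclear receptor COUP-TFII, was at 1.20 ± 0.16 (adjusted p = 0.000566 in limma) and at 0.51 (adjusted p = 0.0458) with block-wise loess. Foxo1, a forkhead factor, was at 0.88 ± 0.14 (adjusted p = 0.00138) and at 0.35 (adjusted p = 0.0411), but its 3 other clones were at -0.38, -0.05 and 0.08, the last of them lower with block-wise loess at -0.41 (adjusted p = 0.0289). Nr0b2, a nuclear receptor without a DNA-binding domain, was at -0.42 (adjusted p = 0.0268) and at -0.07 with block-wise loess. The coactivator gene Ncoa2 was lower in both, at -0.40 (adjusted p = 0.0464) and -0.33 (adjusted p = 0.0421). With block-wise loess 3 were higher and 1 lower, where 6.67% and 4.55% of all clones were. The third was Nr4a1, an orphan receptor gene induced by ACTH, named after its values were seen, at 1.14 (adjusted p = 0.0266) against 0.77 with global loess.

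**Figure D4:**
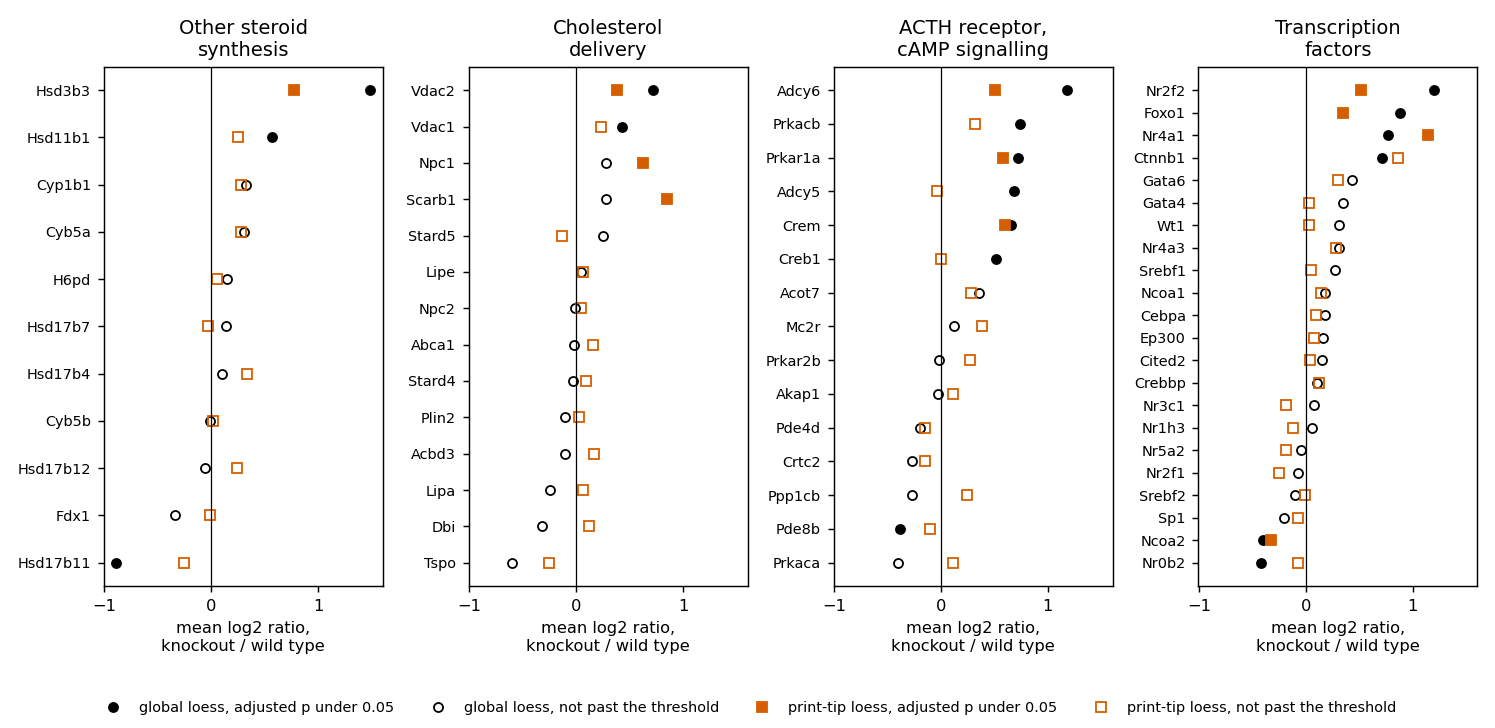
Mean log2 ratio of knockout over wild type (horizontal axis) of each tested gene (rows) of 4 pathway lists, with circles for global loess, squares for print-tip loess, and filled symbols for an adjusted p under 0.05. Hsd3b3 lies farthest to the right with global loess, at 1.49, and Nr4a1 with print-tip loess, at 1.14, and most genes of each list are open symbols.

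Genes whose log2 ratios over the 6 arrays lay closest to each member were found among 14676 named clones by the root mean square difference. With global loess, the closest to Star were Me1, the cytosolic malic enzyme (0.22), Phldb1 (0.25) and the kinase gene Clk3 (0.27). Phldb1 was also the closest to Hsd3b1 in block 48 (0.18), followed by Wdr5 (0.25) and Hsd3b3 (0.28). The closest to Cyp11a1 were Smug1 (0.23), Acta2 (0.24) and Slc25a53 (0.26), and those to Nr5a1 were Ncoa4 (0.12), Sdhb (0.14) and Nudt3 (0.14). With block-wise loess they were others: Prdx3 (0.16), Snx11 (0.16) and Ptp4a1 (0.16) for Star, Npepl1 (0.12), Chchd6 (0.20) and Laptm4a (0.20) for Cyp11a1, Npdc1 (0.13), Lmcd1 (0.13) and Chchd6 (0.14) for Hsd3b1, and Prodh (0.13), Aldh2 (0.13) and Nr2f2 (0.13) for Nr5a1. The closest genes therefore depended on the normalization. The part of signal strength and of print position in this likeness was not tested.

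Markers of other adrenal cells were read in the same gland RNA, in which fewer cells of a type and less RNA per cell cannot be told apart. Of 9 tested markers of the chromaffin cells of the medulla, 5 were higher and 1 was lower with global loess, and 3 and 1 with block-wise loess. Over all clones 30.4% passed in either direction with global loess and 11.2% with block-wise loess, so that lists with 1 call of 3 or 6 lie near that share. The summed red (wild-type) signal of the chromaffin markers was 3880 to 29736 and their summed green (knockout) signal 26585 to 54012 over the arrays. Such sums, here and below, are not normalized. Over all spots of an array the green signal also exceeded the red, at a median log2 ratio of 0.37 to 2.15 before normalization. The granule protein gene Scg3 was at 1.36 ± 0.21 (adjusted p = 0.00119 in limma) and at 1.22 with block-wise loess. Its 2 other clones were at -0.34 and 0.48 with global loess. Chga was at 1.26, and at 0.39 with block-wise loess, where this clone did not pass (adjusted p = 0.077) but its other tested clones did (adjusted p = 0.0397 and 0.028). Chgb (0.70, adjusted p = 0.0248) and Scg2 (0.89, adjusted p = 0.0309), named after their values were seen, were the other block-wise calls as higher. The monoamine transporter gene Slc18a1 was at -0.41, and at -0.46 with block-wise loess. Of 8 capsule and fibroblast markers 2 were higher and 2 lower with global loess, and 2 and 1 with block-wise loess. Col1a1 was at 1.64 (0.91 with block-wise loess), with its 2 other tested clones at -0.04 each with global loess. Col1a2 was at 0.61 (0.24 with block-wise loess, adjusted p = 0.121 in limma). Its other tested clones, at 0.49, 0.18 and 0.31 with global loess, did not pass. Col3a1 and Dcn were lower, each at -0.50 (-0.16 with block-wise loess), with other clones of both past the threshold as higher. With block-wise loess Tcf21 (0.54, adjusted p = 0.0453) and Pdgfra (-0.32, adjusted p = 0.0418) passed, both named after their values were seen. Of 5 macrophage markers 2 were higher with global loess, C1qb (0.94, and 0.88 with block-wise loess) and Cd68 (0.63, and 0.25). The other clone of C1qb was at 0.23 with global loess and did not pass. Cd68 did not pass with block-wise loess (adjusted p = 0.265 in limma). C1qa, C1qc and Lyz2 were at 0.08, 0.18 and -0.05 with global loess and did not pass. Of 3 markers of the zona glomerulosa 1 was higher, Dab2 (0.73, and 0.47 with block-wise loess). The other tested clone of Dab2 was at 0.21 with global loess and did not pass. With block-wise loess Vsnl1, named after its value was seen, was lower at -0.31 (adjusted p = 0.0418 in limma). Of 6 endothelial markers 1 was higher with global loess, Eng (0.42; -0.03 with block-wise loess). Among blood cell markers Ptprc was at -0.47 (-0.19 with block-wise loess), the adipocyte marker Fabp4 was at 0.30 (0.21), and the kidney marker Lrp2 was at 0.00 in both. Summed over the tested markers, capsule and fibroblast signals were 3752 to 14904 in red and 15846 to 32630 in green, and macrophage signals 1546 to 6499 in red and 7371 to 9341 in green. No X-zone marker was tested. The part of any of these cells in the ratios of the steroidogenic genes was not tested.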

How the data were processed

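Adrenal RNA was compared on 6 spotted cDNA arrays of 37632 spots in 48 print blocks. Scanner and software were a GenePix 4000A, IPLab and a FileMaker Pro database, per the labels' design text. Background was already subtracted in the deposited intensity values of both channels, since empty positions had a median of 1.0. The deposited quality score of each spot runs from 0 to 1, and the authors used ratios above 0.3. The deposited calibrated ratio divides red over green by a constant of each array. The authors' log2 value table is red over green after a further background subtraction and a floor, as found by setting 99.8% of its rows against single spots (within 0.002); this link named 22364 clones with 1 gene, 1105 with several and 12492 with none.

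Here log2 of green over red was taken without further background correction, and normalized by loess (span 0.3, 4 iterations) within each array (global) or block (print-tip), at quality above 0.3. Empty and control-plate spots (1152) were left out. Clones measured on 4 of 6 arrays were tested against 0 with limma 3.58.1 (lmFit, eBayes; R 4.3.3), adjusted over 28664 clones, and the procedure was tested on simulated data. Neighbours were spots within 3 rows and columns. Exact permutations used scipy 1.17.1. The number of arrays limits the precision.

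The members and lists were chosen with earlier results of these data known. Named were every member clone, Adcyap1, at most 2 genes per list and direction past the threshold (clone of highest signal; otherwise the smallest p) and the 3 genes nearest to each member with a clone on all arrays. Fdx1, Tspo and Mc2r were named outside this rule, as were the genes marked as named or chosen after their values were seen. Alternatives covered normalization, quality, an offset of 50, the authors' table and leaving out arrays.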

Additional observations from a re-analysis of the deposited data

How the results depend on the processing

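With global loess, leaving out 1 array at a time kept all calls of the members higher in the knockout (5 of 5 in each case); the log2 ratio ran from 1.33 to 1.81 for Star, 0.96 to 1.38 for Cyp11a1, 1.31 to 1.98 and 1.49 to 1.86 for Hsd3b1 in blocks 33 and 48 and 0.55 to 0.79 for Nr5a1. The lower call of Cyp17a1 (0 to 1 clones) could not be tested without array 1, 3, 4 or 6, which left under 4 values. Over all clones the count ran from 4462 of 27867, without array 4, to 8647 of 27347, without array 1. With print-tip loess it ran from 1 to 3742, that of the members from 0 to 4, and the ratio from 0.47 to 0.83 for Star, 0.55 to 0.91 for Cyp11a1, 1.14 to 1.70 and 0.59 to 0.91 for Hsd3b1 in blocks 33 and 48, and 0.51 to 0.71 for Nr5a1. Full-set print-tip values were 0.67 for Star, 0.72 for Cyp11a1 and -0.18 for Cyp17a1, with 3216 clones, 3 members higher and 0 lower. After neighbour subtraction Cyp11a1 was at 0.86 (adjusted p = 0.0577) and Cyp17a1 at -0.015, with 3843 clones and 0 members lower.

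With the authors' deposited log2 values centred on each array's median, 90 clones, 0 members higher and 0 lower passed; Star was at 0.36, Cyp11a1 at 0.46, Hsd3b1 at 0.44 and 0.54, Nr5a1 at 0.18 and Cyp17a1, reversed, at 0.98, as were Slc18a1 (0.44), Dcn (0.13) and Ptprc (3.32); the cause was not tested. Not centred, a setting added after seeing the data, they gave 1.11 for Star, 1.20 for Cyp11a1, 1.13 and 1.28 for Hsd3b1, 0.92 for Nr5a1 and 1.75 for Cyp17a1, with 68 clones past the threshold. Eng reversed to -0.027 with print-tip loess and -0.045 after neighbour subtraction. Without arrays 2 and 4, 2066 of 29340 clones, 3 members higher and 0 lower passed. Cyp11a1 was at 0.78, Nr5a1 at 0.47 and Cyp17a1 at -0.63. With print-tip loess as well, 81 clones and 0 members in either direction passed; Star was at 0.20, Cyp11a1 at 0.35, Hsd3b1 at 0.73 and 0.41, Nr5a1 at 0.36 and Cyp17a1 at -0.087. Quality above 0.5 and a need for all 6 arrays left Cyp17a1 untested, with 0 lower. Print-tip curves fitted without the member spots, added after seeing the data, changed no call (Star 0.70, adjusted p = 0.0778), nor did spread scaling. Signals of Cyp17a1 that are low against the background in both channels limit its ratio.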
